A study of Mus musculus with 32 samples.

Results

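The replication-independent histone genes are a set of 8 genes, H3f3a, H3f3b, H2afz, H2afv, H2afx, H2afy, H2afj and H1f0, chosen by name. All 8 were present among the 44081 genes counted on 3′UTRs and among the 23453 genes counted on exons, and 16 of the 74532 counted 3′ ends belonged to them. The soma and the dendrites of 16 single hippocampal neurons from embryonic day 18 C57BL/6 mice, grown in primary culture for 15 days, were collected separately and sequenced, which gave 32 libraries paired by neuron. The labels give no transgene and no treatment, and the only contrast in them is soma against dendrites of the same cell. Poly-adenylated RNA was amplified by in vitro transcription (the aRNA method) in 3 rounds for neurons 1 to 4 and in 2 rounds for the other 12, and an ERCC spike-in was added for 14 of the neurons, all but neurons 1 and 2. The labels do not say which neurons came from the same animal or culture, so p-values measure the spread between these neurons.

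Most histone mRNA in dividing cells comes from replication-dependent genes, whose transcripts end in a conserved stem-loop in place of a poly-A tail and are made while DNA is copied. Replication-independent genes, also called replacement histone genes, give poly-adenylated transcripts throughout the life of a cell, and their proteins are exchanged into chromatin outside of S phase. Neurons no longer divide, so they renew their nucleosomes largely with such variants, and H3.3 is known to accumulate in neuronal chromatin with age.

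The 8 genes cover the main variant families. H3f3a (ENSMUSG00000060743.12, chromosome 1, positions 180800832 to 180813943 of GRCm38, minus strand) and H3f3b (ENSMUSG00000016559.14, chromosome 11, 116021912 to 116027962, minus strand) encode the same histone H3.3, although their coding sequences differed at 95 of 411 bases (76.9% identity). H2afz (ENSMUSG00000037894.13, chromosome 3, 137864487 to 137866922, plus strand) and H2afv (ENSMUSG00000041126.16, chromosome 11, 6427229 to 6444443, minus strand) encode the closely related H2A.Z proteins, with coding sequences that differed at 81 of 387 bases (79.1% identity). H2afx (ENSMUSG00000049932.3, chromosome 9, 44334694 to 44336077, plus strand) encodes H2A.X, which is phosphorylated around DNA double-strand breaks. H2afy (ENSMUSG00000015937.15, chromosome 13, 56073619 to 56136361, minus strand) encodes macroH2A1, a variant with a large additional domain that is associated with silent chromatin. H2afj (ENSMUSG00000060032.6, chromosome 6, 136808244 to 136810074, plus strand) encodes H2A.J, and H1f0 (ENSMUSG00000096210.2, chromosome 15, 79028450 to 79030504, plus strand) encodes H1.0, the linker histone typical of differentiated cells.

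H2afx stands between both classes, because its mRNA can end either at a stem-loop or at a poly-A tail. The 16-base form of the histone stem-loop, GGNNCTTNTNAGNNCC with N for any base, was searched on the sense strand of the GENCODE transcripts. It occurred in 46 of 70 replication-dependent histone genes (65.7%) and in 201 of all 55341 genes (0.363%). Among the 8 replication-independent genes it occurred in H2afx alone, 46 bases after the stop codon of its single exon, in the 3′UTR. The site is shown with 5 bases on either side (chr9:44335235-44335260, GRCm38, plus strand), with the stem-loop in capitals, because it is the sequence that sets this gene apart from the other 7.
H2afx stem-loop: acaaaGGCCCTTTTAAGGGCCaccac
The match describes the sequence only, and whether transcripts ended there was not measured in these libraries.

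Dendrite libraries held 646521 to 6954420 reads on 3′UTRs and soma libraries 925525 to 21169974. Dendrites of neurons 12, 15 and 16 stood apart from the others, with 1570 to 3794 genes at 10 or more reads against 4781 to 9871 in the other 13 dendrites and with 25.8% to 35.8% of their reads on mitochondrially encoded genes against 2.39% to 21.9%. The dendrite marker Map2 was higher in dendrites (log2 fold change 2.66 ± 0.49 SE, adjusted p = 0.00202, edgeR), while the other 4 neuron markers, Tubb3, Snap25, Rbfox3 and Syt1, had -1.24, -1.22, -1.62 and -1.14 and did not pass. The 3 interneuron markers Gad1, Gad2 and Slc32a1 summed to 1126 to 19881 CPM (read counts scaled by TMM to a common library size) in somas (median 9639) and 1737 to 11316 in dendrites (median 4033), and the 5 pyramidal cell markers to 27.3 to 1946 (median 106) and 3.97 to 560 (median 204). Gad1 was higher in somas (log2 fold change -1.58 ± 0.38 SE, adjusted p = 0.0148, edgeR), while Gad2 and Slc32a1 had -0.74 and -0.63 and did not pass. Summed astrocyte markers had medians of 57.5 in somas and 159 in dendrites, dividing cell markers 9.13 and 25.0, oligodendrocyte markers 2.69 and 8.30, microglial markers 0.298 and 5.55, and endothelial markers 0.216 and 1.70. The endothelial marker Cldn5 was at 0 in every library, and the part of other cell types in the values below was not tested.

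All 8 genes had lower fitted levels in dendrites than in somas, by 0.63 to 4.79 on the log2 scale, but most transcripts did so in these libraries: 78.8% of the 10880 genes tested had a negative log2 fold change, and the median gene had -1.49. The test was edgeR's quasi-likelihood test on 3′UTR counts, with TMM scaling and neuron as a block, for genes seen with 1 read or more in 16 libraries or more. After adjustment over all genes (Benjamini-Hochberg, at most 0.05), 1 of the 8 genes, H1f0, was higher in somas and 0 were higher in dendrites, where 5.71% and 0.827% of all genes tested passed in those directions. At an unadjusted p under 0.05, 4 of the 8 were higher in somas against 26.7% of all genes. Over the 8 genes the median was -2.10 on the log2 scale. DESeq2 on the same counts called 7 of the 8 genes higher in somas, all but H2afj, and 46.2% of all genes.

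**Figure D1:**
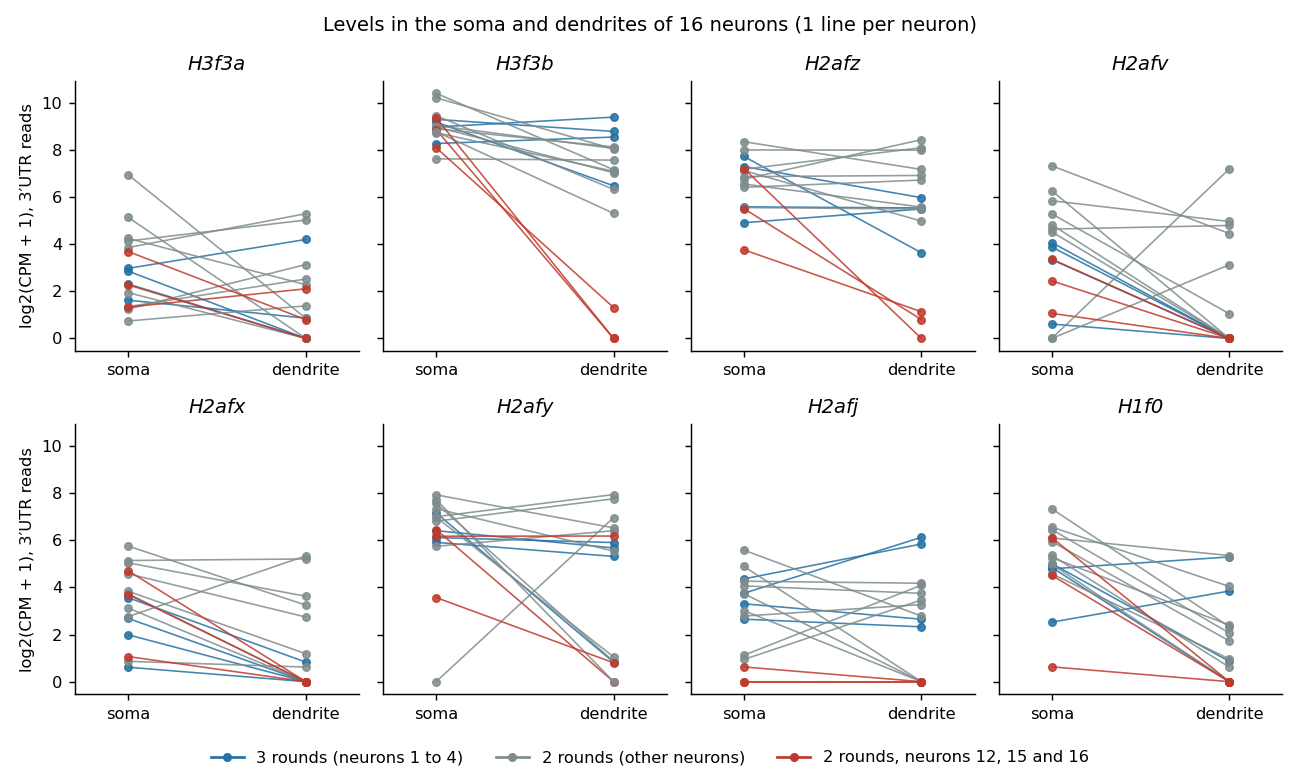
Log2 of 3′UTR CPM plus 1, soma beside dendrites, for 16 neurons, with 1 panel per gene and 1 line per neuron. The lines of H3f3b, H2afx and H1f0 fell from soma to dendrite in 14 neurons, and the dendrites of neurons 12, 15 and 16 lie at or near 0 for most genes.

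H3f3b held the most reads of the set. Its 3′UTR level ranged, in CPM, from 196 to 1355 in somas (median 503) and from 0 to 672 in dendrites (median 139). It had reads in all 16 somas and in 14 dendrites, was lower in the dendrites of 14 neurons and higher in those of neurons 1 and 4, and 10 dendrites lay below every soma. The log2 fold change was -2.33 ± 0.76 (SE), with an adjusted p of 0.0508 (edgeR), which just missed the threshold. All 12 neurons amplified in 2 rounds were lower in dendrites, with a fold change of -3.03 ± 0.96 on the log2 scale, and 2 of the 4 neurons amplified in 3 rounds, with -0.42 ± 0.71. The difference between both groups of neurons, 2.46 ± 1.64, did not pass the test (edgeR, p = 0.138, adjusted p = 1). Without neurons 12, 15 and 16, a setting chosen after seeing the data, the fold change of H3f3b moved to -1.40 ± 0.41 on the log2 scale, with an unadjusted p of 0.00164 and an adjusted p of 0.0755, and 0.513% of genes were called higher in somas.

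H3f3a, the second source of H3.3, had far fewer reads on its 3′UTR. Its levels ranged from 0.673 to 122 CPM in somas (median 5.09) and from 0 to 38.3 in dendrites (median 1.21), with the highest soma value in neuron 13 and the highest dendrite value in neuron 10. Dendrites were lower in 9 neurons and higher in 7, and the ranges overlapped. Its difference of -1.62 ± 1.37 on the log2 scale did not pass the test (edgeR, adjusted p = 0.405). The 3′UTR count of H3f3a held only 34.9% as many reads as its exon count, 2766 against 7934. Of 9208 genes with at least 1000 exon reads, the median gene had 98.5%, and only 3.06% of them had less than H3f3a, while the other 7 histone genes had 79.7% to 99.9%. The share was 21.2% in dendrites and 36.8% in somas, and the soma of neuron 13 held 1604 of the 3′UTR reads but 649 exon reads. Without that library the share was 16.0%, from 1162 and 7285 reads. GENCODE lists 36 pseudogenes with at least 90% identity to the H3f3a mRNA over 200 or more bases, against 3 for H3f3b, and only uniquely mapped reads were counted. The 17 such copies of H3f3a in the 3′UTR table held 818 reads in all. The 3 with the most reads were Gm26980, with 297 in dendrites and 171 in somas, Gm17136, with 77 and 3, and H3f3a-ps1, with 26 and 42. Whether copies took reads from H3f3a was not tested. Its level, also against H3f3b, and its difference between compartments are therefore uncertain.

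H2afz was the steadiest in detection on 3′UTR counts, with reads in 15 of 16 dendrites and all 16 somas. On exon counts H3f3a also had reads in all somas and in all dendrites but those of neuron 15. The 3′UTR levels of H2afz ranged from 12.6 to 325 CPM in somas (median 112) and from 0 to 345 in dendrites (median 46.1). The ranges overlapped, with the dendrites of neuron 8 above every soma and 4 dendrites below every soma, and those of neurons 12, 15 and 16 held 2, 0 and 1 reads. The log2 fold change was -1.08 ± 0.87 (adjusted p = 0.376, edgeR), less negative than that of the median gene by 0.41. Without neurons 12, 15 and 16 it was -0.28 ± 0.61 (adjusted p = 0.822, edgeR). Of the 2 copies of H2afz in the 3′UTR table, the processed pseudogene Gm8203, identical to H2afz over 387 bases, held 822 reads, 107 in dendrites and 715 in somas, against 18170 for H2afz.

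H2afv, the second H2A.Z gene, was seen in few dendrites. It had reads in 14 somas but only 6 dendrites, with levels from 0 to 160 CPM in somas (median 14.8) and from 0 to 145 in dendrites (median 0). The 10 dendrites at 0 allow levels of up to 0.478 to 4.01 CPM at 3 reads per library. Dendrites were lower in 13 neurons and higher in 3, neurons 5, 7 and 14. Neurons 5 and 14 had 10 and 271 reads in dendrites and 0 in their somas, and neuron 7 had 26.8 CPM in dendrites and 23.9 in the soma. The log2 fold change was -4.79 ± 1.65, in the lowest 5.34% of all genes, and missed the threshold (edgeR, adjusted p = 0.0630). Leaving out neuron 5 or neuron 14 brought the adjusted p to 0.0300 and 0.0379 (edgeR). It was 0.133, 0.131 and 0.155 without neuron 13, 15 or 16, and 0.248 without neurons 12, 15 and 16 together (edgeR).

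H2afx was detected in all 16 somas and in 8 dendrites. Levels ranged from 0.528 to 53.0 CPM in somas (median 11.4) and from 0 to 39.5 in dendrites (median 0.268). Dendrites were lower in 14 neurons, and 8 dendrites lay below every soma. Neuron 11 was the clearest exception, with 196 reads in dendrites and 64 in the soma. Like H2afj, it shares at least 90% of its sequence over 200 or more bases with other H2A genes, 18 of which were in the 3′UTR table, with 2127 reads in all. Its difference was -3.46 ± 1.23 on the log2 scale and missed the threshold (edgeR, adjusted p = 0.0695).

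H2afy had reads in 15 somas and 14 dendrites, with levels from 0 to 243 CPM in somas (median 99.0) and from 0 to 245 in dendrites (median 47.8). The ranges overlapped almost entirely, and dendrites were lower in 11 neurons. In neuron 11 all 614 reads came from the dendrites and 0 from the soma, whereas in neuron 13 the soma held 2489 reads and the dendrites 1. In the fit it was at -1.88 ± 1.21 on the log2 scale (adjusted p = 0.274, edgeR). The 3′UTR and exon counts of H2afy parted in single libraries, with 108 and 0 reads in the dendrites of neuron 15 and 159 and 17 in the soma of neuron 12. Those of H2afv did so too, with 2 reads on the 3′UTR and 126 on exons in the soma of neuron 12.

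H2afj had the smallest difference. Levels ranged from 0 to 46.9 CPM in somas (median 7.98) and from 0 to 68.9 in dendrites (median 5.58), and the dendrites of neurons 3 and 4 lay above every soma. Dendrites were lower in 9 neurons, higher in 5 and equal at 0 in neurons 12 and 16. For H2afj it was -0.63 ± 1.29 on the log2 scale (adjusted p = 0.746, edgeR), less negative than that of the median gene by 0.86. H2afj shares at least 90% of its sequence over 200 or more bases with 14 other genes of the 3′UTR table, mostly replication-dependent H2A genes, and those held 2444 reads in all, of which 2146 were H2afx.

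H1f0 was the gene that passed the test. Its levels ranged from 0.546 to 161 CPM in somas (median 34.4) and from 0 to 39.9 in dendrites (median 1.64). It had reads in all 16 somas and in 11 dendrites, 7 somas lay above every dendrite, and dendrites were lower in 14 neurons. Neurons 1 and 2 were the exceptions, with 10 against 9 reads and 29 against 27 reads in dendrites and soma. The log2 fold change was -4.62 ± 1.28 (adjusted p = 0.0258, edgeR), which is 3.13 below the median gene and in the lowest 6.30% of all genes. It was -5.08 ± 1.51 in the 12 neurons with 2 rounds (adjusted p = 0.0461, edgeR) and -2.10 ± 2.69 in the 4 neurons with 3 rounds (adjusted p = 0.941, edgeR), and the difference between them was 2.74 ± 3.35 (edgeR, p = 0.417, adjusted p = 1). This call of H1f0 was lost when neuron 3, 13, 15 or 16 was left out, with adjusted p of 0.0594, 0.0599, 0.0602 and 0.0698 (edgeR), and without neurons 12, 15 and 16 together, where the fold change was -3.94 ± 1.28 and the adjusted p 0.107. It was also lost on exon counts, with -4.10 ± 1.35 and an adjusted p of 0.0557 (edgeR), where 0 of the 8 genes and 2.62% of all genes passed.

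**Figure D2:**
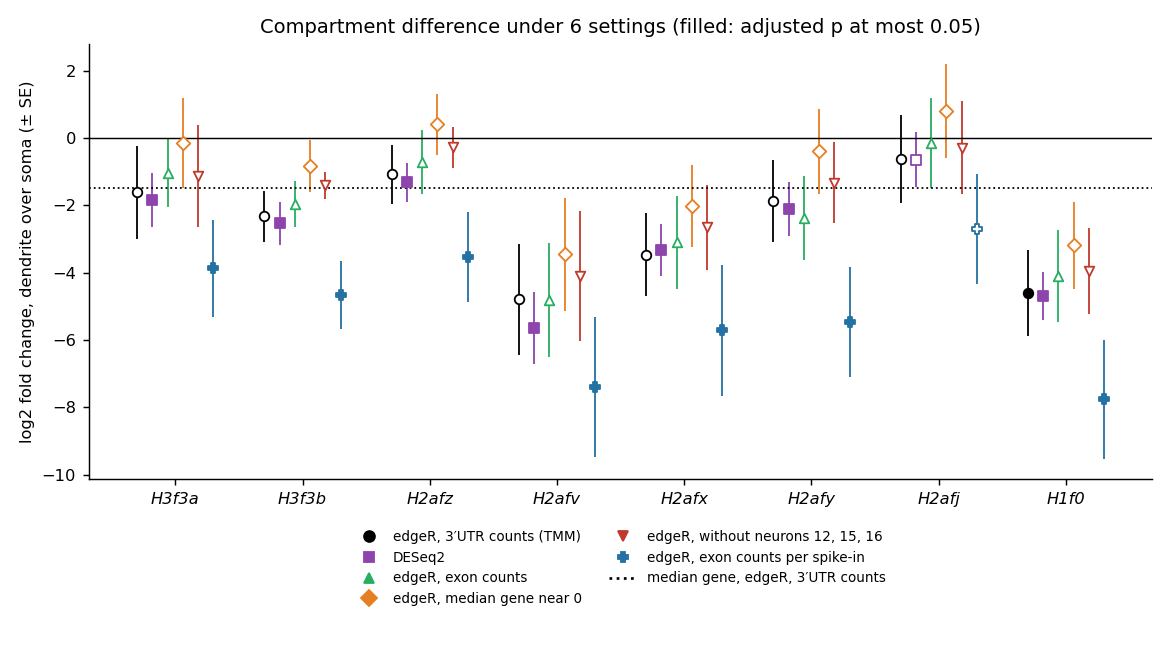
Log2 fold change of dendrite over soma, with its standard error, for each gene under 6 settings, where filled symbols passed an adjusted p of 0.05 and the dotted line is the median gene at -1.49. With dendrite libraries rescaled to a median gene near 0, H2afz and H2afj lay above 0, at 0.41 and 0.81, and the other 6 genes lay below 0.

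As the median gene was itself lower in dendrites, the sign of a small difference depended on the scaling. With dendrite libraries rescaled to bring the median gene near 0, H2afz was at 0.41 and H2afj at 0.81 on the log2 scale, the other 6 genes remained negative, and 0 of the 8 passed (edgeR), with 2 at an unadjusted p under 0.05, as for 6.73% of all genes. H1f0 then had -3.19 (adjusted p = 0.133, edgeR), and 0.846% of all genes were called higher in somas and 5.04% higher in dendrites. With median-of-ratios scaling in edgeR, 4 of the 8 passed, H3f3b, H2afv, H2afx and H1f0, where 9.26% of all genes did. Exon counts scaled by the spike-in in edgeR called 7 of the 8, all but H2afj, and 64.4% of all genes, while TMM on the exon counts of the same 14 neurons called H1f0 and 5.29% of all genes. H1f0 was also the gene that passed with the filter raised to 10 reads in 16 libraries (2.55% of all genes passed, and H3f3a was not tested) and in the 12 neurons of 2 rounds (2.88%). None of the 8 passed in edgeR in the 4 neurons of 3 rounds (0.00758% of all genes, 1 of the 8 and 4.26% of all genes at an unadjusted p under 0.05), with every gene of 1 read in any library (0.46%, with 4 of the 8 and 10.8% of all genes at an unadjusted p under 0.05) or without the neuron block (0.708%, with 2 of the 8 and 7.51% of all genes at an unadjusted p under 0.05).

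The low dendrites of neurons 12, 15 and 16 held few reads of the set. The 8 genes together had 2, 113 and 5 reads there, against 185 to 3107 in the other 13 dendrites, and of the 113 reads in neuron 15, 108 lay on H2afy. Their summed level was 1.20 to 74.8 CPM in these dendrites and 244 to 786 in the others, while their somas, at 383 to 975 CPM, lay within or near the range of the others, 422 to 1943. Over all neurons the summed level was higher in the soma in 13 of 16. All 8 genes were seen with at least 1 read in 11 somas but in only 3 dendrites, those of neurons 5, 6 and 8.

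Presence with 1 read or more in 15 or 16 dendrites is a rule for constant presence there. On 3′UTR counts it was met by H2afz alone of the 8 genes and by 5.99% of the 31102 genes with any read. H3f3b and H2afy followed with 14 dendrites, H3f3a and H1f0 with 11, H2afj with 10, H2afx with 8 and H2afv with 6. On exon counts H3f3a met the rule too, with 0 reads only in the dendrites of neuron 15. The share of all genes on exon counts was not computed. Thinned to the 646521 reads of the smallest library, H2afz would be expected in 13.9 dendrites and none of the 8 would reach 15, while 2.58% of the 31102 genes would. All 16 somas had reads of H3f3a, H3f3b, H2afz, H2afx and H1f0.

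Read against the spike-in, all 8 genes were lower in dendrites. For each neuron, exon reads per ERCC read were compared between dendrite and soma in the 14 neurons with a spike-in, by an exact sign-flip permutation test (two-sided) adjusted over 9513 genes. H1f0 had the largest difference, -6.57 ± 2.80 on the log2 scale (SD, n = 14 neurons, adjusted p = 0.00153, exact), and was lower in 14 of 14 neurons. H3f3b followed with -5.60 ± 4.02 (adjusted p = 0.00153, exact), also lower in 14 of 14. Their unadjusted p of 0.000122 was the smallest that 14 pairs can give. H2afj had the smallest, -2.73 ± 3.93 (adjusted p = 0.0296, exact), lower in 12 of 14. The other 5 genes lay between -4.91 and -3.91, with adjusted p of 0.00203 to 0.0168.

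The same test called 75.6% of all genes lower in dendrites, the median gene had -3.77, and all exon reads together had -2.59 ± 1.58 per spike-in read (SD, n = 14, p = 0.000244, exact sign-flip permutation test). The count of 8 of 8 is to be read against that share. H1f0 lay in the lowest 1.36% of genes, H3f3b in the lowest 8.21%, and H2afj at the percentile of 73.5. Less dendrite material in the tube and less RNA per dendrite cannot be told apart. Without neurons 12, 15 and 16, 5 of the 8 genes and 51.7% of all genes passed, and H2afv, H2afy and H2afj did not (adjusted p = 0.0935, 0.0854 and 0.114, exact). The difference was then -3.70 ± 1.46 for H3f3b, -2.76 ± 1.91 for H3f3a, -2.55 ± 2.25 for H2afz and -6.31 ± 2.59 for H1f0 on the log2 scale (SD, n = 11 neurons).

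Levels of different genes were compared per length, as CPM of exon reads (here scaled by each library's exon total, without TMM) divided by the kb of exon in GENCODE. In somas H3f3b stood first with a median of 187 (65.4 to 463), followed by H2afz with 62.9 (7.24 to 199.8). Both steps at the top were larger than the spread: H3f3b exceeded H2afz in 15 of 16 somas (by 1.73 ± 1.25 log2, SD, adjusted p = 0.000427, exact sign-flip permutation test over 7 neighbouring pairs), and H2afz exceeded H3f3a in 14 of 16 (1.55 ± 1.44, adjusted p = 0.00577, exact). H3f3a (17.4), H2afy (17.2), H1f0 (17.1), H2afv (14.5), H2afx (8.96) and H2afj (5.87) followed by median, and no neighbours among these differed beyond their spread (adjusted p of 0.250 to 0.802, exact permutation).

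In dendrites the order began with the same pair, but H3f3b, at a median of 62.2 per kb (0 to 225), and H2afz, at 32.4 (0 to 199), did not differ beyond their spread. H3f3b was the higher in 8 of 16 dendrites, with a log2 difference of 0.19 ± 2.12 (SD, adjusted p = 0.793, exact permutation). H2afz exceeded H3f3a, at 9.57, in 15 of 16 dendrites (1.84 ± 1.47 log2, SD, adjusted p = 0.000427, exact). The place of H3f3a is uncertain in both compartments, because whether its copies took reads from it was not tested. H2afj, H2afy, H1f0, H2afx and H2afv followed with medians of 4.72, 4.11, 1.01, 0.194 and 0 per kb, with no difference between neighbours past the test (adjusted p of 0.256 to 0.793, exact permutation). The median of H3f3b exceeded that of 98.9% of 19854 genes in somas and 97.1% in dendrites. Amplification starts at the poly-A tail and most reads lie near the 3′ end, and the length is the union of all annotated exons of a gene, from 1384 bases (H2afx) to 6809 (H2afy, over 8 transcripts), so the order per kb depends on that choice of length.

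**Figure D3:**
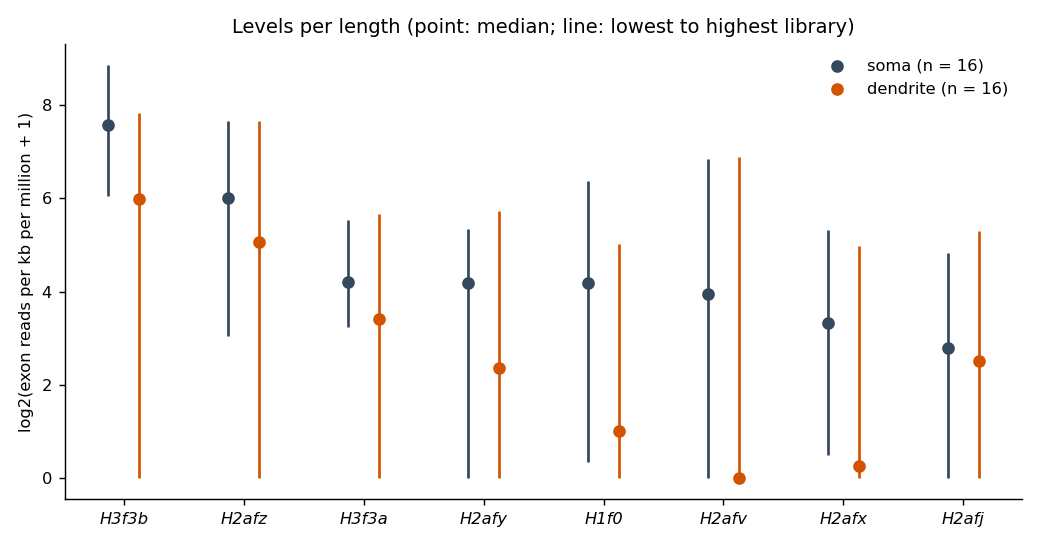
Log2 of exon CPM per kb plus 1 for each gene in 16 somas and 16 dendrites, where points are medians and lines run from the lowest to the highest library. H3f3b and H2afz head both orders, and the dendrite lines of all 8 genes reach 0.

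The H3.3 genes were then compared with each other within a library, where no scaling enters. The log2 ratio of H3f3a to H3f3b on 3′UTR reads (each plus 1) was -6.36 ± 2.19 in somas and -4.59 ± 3.59 in dendrites (SD, n = 16). It was higher in dendrites by 1.77 ± 4.51 (SD, n = 16 neurons) in 11 neurons and did not pass (p = 0.136 in a two-sided exact sign-flip permutation test, adjusted over both ratio comparisons 0.272). On exon reads, of which H3f3a had more, the ratio was -3.04 ± 0.59 in somas and -1.79 ± 1.86 in dendrites, and the difference of 1.25 ± 1.79 passed (p = 0.0139, adjusted p = 0.0277, exact sign-flip permutation test), with 12 of 16 neurons higher in dendrites.

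The spread of that ratio was narrow in somas and wide in dendrites. Neurons 12, 15 and 16 all lay among the neurons with a higher ratio in dendrites. Their dendrites held 4, 0 and 1 exon reads of H3f3a and 0, 0 and 2 of H3f3b. Without these 3 neurons the exon difference was 0.84 ± 1.68 (SD, n = 13) and did not pass (p = 0.0923, adjusted p = 0.185, exact). The 3′UTR difference was then 0.49 ± 3.71 (p = 0.627, exact permutation). With 0.5 added to each count in place of 1, the 3′UTR difference over all 16 neurons was 1.53 ± 4.96 (SD, p = 0.237, exact permutation). Within the 12 neurons of 2 rounds the 3′UTR difference was 2.50 ± 4.93 (p = 0.109, exact permutation), and within the 4 neurons of 3 rounds it was -0.43 ± 2.09 (p = 0.875, exact), where 4 pairs cannot go below 0.125.

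**Figure D4:**
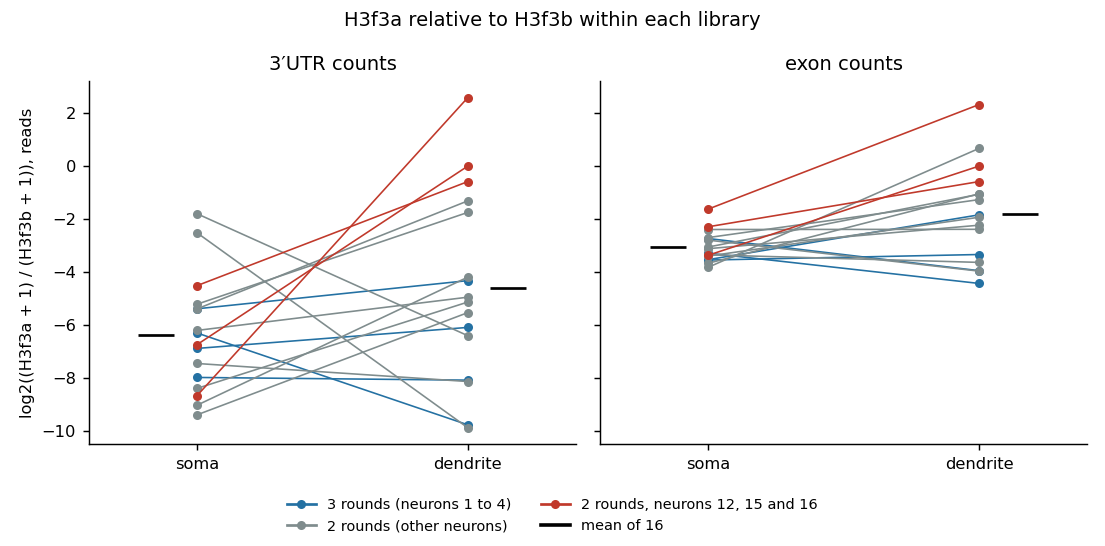
Log2 ratio of H3f3a to H3f3b reads (each plus 1), soma beside dendrites, for 16 neurons, on 3′UTR counts and on exon counts, with the mean of 16 as a bar. On exon counts the somas lie close together around -3.04 and the dendrites spread around -1.79, with neurons 12, 15 and 16 among the highest.

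For the H2A.Z genes, the log2 ratio of H2afz to H2afv on 3′UTR reads was 3.28 ± 2.34 in somas and 3.94 ± 3.42 in dendrites (SD, n = 16). The difference of 0.66 ± 4.83 was higher in dendrites in 7 neurons and lower in 9, and did not pass (exact sign-flip permutation test, p = 0.590, adjusted p = 0.590). It was 0.36 ± 5.44 in the 12 neurons of 2 rounds and 1.56 ± 2.53 in the 4 neurons of 3 rounds. Exon counts gave 1.00 ± 4.90 (p = 0.425, exact permutation). In neuron 12, whose soma held 2 H2afv reads on the 3′UTR and 126 on exons, the difference was -1.42 on 3′UTR reads and 3.99 on exon reads.

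The dendritic read fraction, the share of a neuron's reads of a gene that came from its dendrites after size factor scaling, shows how far neurons differed. It was computed for neurons with at least 10 normalized reads of the gene. The mean was lowest for H1f0, at 0.137 ± 0.223 (SD, n = 15 neurons), followed by H2afx at 0.166 ± 0.258 (n = 13), H3f3b at 0.205 ± 0.160 (n = 16) and H2afv at 0.221 ± 0.373 (n = 13). It was 0.307 ± 0.296 for H2afy (n = 16), 0.339 ± 0.236 for H2afz (n = 16), 0.342 ± 0.355 for H3f3a (n = 13) and 0.421 ± 0.340 for H2afj (n = 13). Over the 8 genes the median of the mean fractions was 0.264, against 0.335 for 10331 genes. On raw reads, without scaling for the smaller dendrite libraries, these medians were 0.174 and, for 10471 genes, 0.221, and the mean fell to 0.103 for H3f3b and 0.178 for H2afz.

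Between neurons H3f3b varied least, with a variance of 0.0257, no fraction above 0.495 and 5 neurons under 0.1. In neurons 1 and 4, where TMM scaling had placed H3f3b higher in dendrites, size factor scaling gave fractions of 0.466 and 0.495. H2afv varied most, with a variance of 0.139 against a median of 0.105 over all genes, since 8 of its 13 neurons were under 0.1 and 2, neurons 5 and 14, were at 1. Those same neurons had the highest fractions of H2afj, 0.917 and 0.945, and neuron 11 had a fraction of 1 for H2afy and 0.818 for H2afx. Over pairs of genes, the Spearman correlation of levels across the 16 somas ranged from -0.21 to 0.67 (median 0.18, 28 pairs) and across the 16 dendrites from -0.20 to 0.59 (median 0.19). These are descriptions over libraries that differ in depth.

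**Figure D5:**
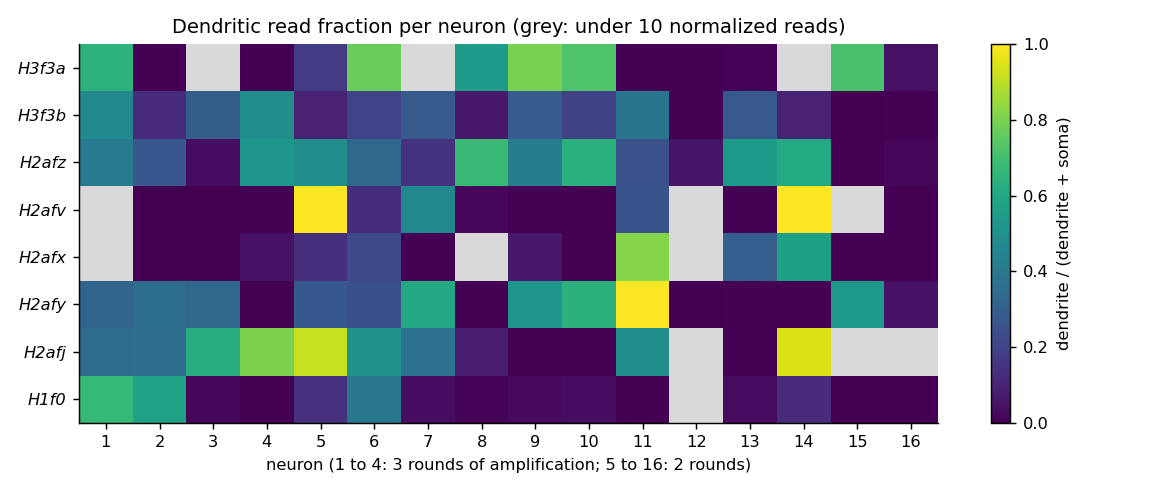
Dendritic read fraction, from 0 to 1, for each of the 8 genes (rows) and 16 neurons (columns), with grey where a gene had under 10 normalized reads in a neuron. The H3f3b row goes no higher than 0.495, while the rows of H2afv, H2afy and H2afj hold fractions of 0.917 to 1 in neurons 5, 11 or 14.

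Alternative 3′ ends could be compared for 3 of the genes. The test compared the share of the second of the top 2 ends, as numbered in the files, between dendrites and soma of neurons with at least 10 reads in both (exact signed-rank test, at least 5 neurons). Of 3522 genes tested, 8.40% had a p under 0.1, 159 had an unadjusted p under 0.05, and 0 passed after adjustment (0 also by the exact sign-flip permutation test). For H2afy, the share of the second end was 0.353 ± 0.312 in dendrites and 0.211 ± 0.144 in somas (SD, n = 7 neurons, p = 0.0938, adjusted p = 1, exact), higher in dendrites in 5 neurons, lower in neuron 9 and equal in neuron 3. For H3f3b it was 0.291 ± 0.203 and 0.263 ± 0.109 (SD, n = 13, p = 0.685, exact). For H3f3a the share of the third end against the first was 0.397 ± 0.517 and 0.642 ± 0.395 (SD, n = 5, p = 0.313, exact), where single neurons held nearly all reads on 1 end.

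Some ends had reads in few libraries. The first end of H2afv had 1766 reads in 7 somas and 0 in all dendrites, while its second end had 2500 reads in 13 somas and 482 in 6 dendrites. The third end of H2afy had 378 reads in the dendrites of neuron 11 and in no other dendrites, and 86 reads in 2 somas. Another of its ends (end 4) had 32 reads in 2 dendrites, 31 of them in neuron 2, and 0 in somas. No test was made of these: only 3 neurons had enough H2afv reads in both compartments, and the test took the top 2 ends of a gene, which for H2afy are ends 1 and 2. H2afz, H2afx, H2afj and H1f0 had 1 counted end each.

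The counts in the further gene lists stand beside 5.71% of all genes called higher in somas (26.7% before adjustment) and a median gene of -1.49. Of the other replication-independent histones, H2afy2, which encodes macroH2A2, was higher in somas (log2 fold change -6.32 ± 1.63, adjusted p = 0.0189, edgeR), with reads in 16 somas and 5 dendrites, and H1fx was at -1.08 ± 1.36 (adjusted p = 0.579, edgeR). Of 7 tested genes for H3.3 deposition, 0 passed (edgeR), with 1 at an unadjusted p under 0.05 and a median of -2.74. Daxx, an H3.3 chaperone, was at -4.52 ± 1.47 (adjusted p = 0.0515, edgeR) and Dek at -3.34 ± 1.78 (adjusted p = 0.191, edgeR).

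Of 13 tested genes for H2A.Z exchange, 3 were higher in somas and 0 in dendrites, with a median of -2.93 (edgeR). Actr6, a subunit of the SRCAP complex that exchanges H2A.Z into chromatin, was at -8.47 ± 1.53 (adjusted p = 0.00182), with reads in 15 somas and 3 dendrites. Dmap1, a subunit of the SRCAP and TIP60 complexes, was at -6.23 ± 1.51 (adjusted p = 0.0151), and Ruvbl1, an ATPase that both complexes share, at -5.32 ± 1.41 (adjusted p = 0.0207, edgeR). Of 13 general histone chaperones, 1 was higher in somas, Nap1l2, a nucleosome assembly protein of neurons, at -3.49 ± 0.87 (adjusted p = 0.0172, edgeR). Nap1l5, of the same family, was at -1.25 ± 0.45 (adjusted p = 0.0721, edgeR) with reads in all 32 libraries.

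Of 4 tested genes for histone mRNA 3′ processing, 2 were higher in somas: Npat, an activator of replication-dependent histone transcription, at -7.59 ± 1.87 (adjusted p = 0.0167), and Lsm10, a part of the U7 snRNP, at -5.97 ± 1.92 (adjusted p = 0.0491, edgeR). Of 5 tested genes of the response to H2A.X phosphorylation, 0 passed (edgeR), with 2 at an unadjusted p under 0.05, among them Atm, the kinase of H2A.X, at -5.38 ± 1.99 (adjusted p = 0.0774), and Rnf168, a ubiquitin ligase, at -2.88 ± 1.36 (adjusted p = 0.144, edgeR). Without neurons 12, 15 and 16 only 0.513% of all genes were called higher in somas.

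Replication-dependent histone genes were mostly below the filter. Of 69 such genes in the 3′UTR table, 4 passed the filter and 0 were called (edgeR), with 1 at an unadjusted p under 0.05. Poly-adenylated RNA was amplified, so how far their stem-loop transcripts entered these counts is not known. Their summed level had a median of 166 CPM in somas and 209.5 in dendrites, and no test was made of the sum. Many of the 69 were at 0 in every dendrite, and some were high in single dendrites. The highest of these values was 323 CPM, from a gene with a median of 0 over the dendrites. Hist3h2a held the most reads, 13250 in all, with a log2 fold change of -2.41 ± 1.12 (adjusted p = 0.141, edgeR). Hist1h2bc followed with 2303 reads and -1.45 ± 1.65 (adjusted p = 0.537), and Hist1h1c with 1833 reads and 1.54 ± 1.66 (adjusted p = 0.513, edgeR).

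Over the 32 libraries, the genes most like H3f3b in level were Prps1, Dpysl2 and Snx3, with Spearman correlations of 0.782, 0.772 and 0.765 among 3477 genes with at least 10 reads in at least 24 libraries. For H2afz they were Arcn1, Dbi and Adap1, with 0.651, 0.647 and 0.646. For H3f3a they were Pde4a, Rprd2 and Stradb, with 0.621, 0.613 and 0.589 among 3478 genes, while its correlation with H3f3b was 0.127. These libraries share their scaling and differ in depth and compartment, so the correlations describe the libraries.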

How the data were processed

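Reads were trimmed, aligned to mm10 (GRCm38) with STAR (version 2.4.0 per the submitters' processing notes) and counted with VERSE by the authors, with strand and for uniquely mapped reads only. All deposited values are raw read counts without normalization or molecular identifiers, on the union of each gene's 3′UTRs, on single 3′ ends (last part of each end, with close ends merged) and on exons and ERCC spike-ins. The limit of 3 reads for H2afv dendrites at 0 therefore covers counting error only, while SE and SD rest on the spread between neurons.

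Counts were analysed with Python 3.11.15 (SciPy 1.17.1, pandas 2.3.3, NumPy 2.4.6) and R 4.3.3 (edgeR 4.0.16, DESeq2 1.42.0). The edgeR quasi-likelihood fit (TMM, robust, neuron as a block) took the 10880 genes with 1 read or more in 16 libraries or more, and p-values were adjusted by Benjamini-Hochberg over all genes. SE is the log2 fold change divided by the root of the F statistic. Ratios and spike-in levels (pseudocount 1) were tested by exact sign-flip permutation. Positions, lengths and transcripts came from GENCODE M21, a later annotation than that of the counts, which matched 93.0% of the genes counted on exons, and copies were found with BLAST 2.17.0 on GRCm38.

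Both compartments came from the same cell, which pairs them. After removal of compartment means, log2 levels correlated at 0.0887 ± 0.0772 (SD, n = 16) within a neuron and -0.00559 ± 0.0526 (SD, n = 240) between neurons. No libraries held identical counts. The compartment, spike-in and 3′ end tests were run on simulated data with 200 changed genes. The test of the difference between rounds was run on data with no simulated difference between rounds. Rates of recovery are not given here. The members and gene lists were chosen with earlier results of these data known. Genes named are the 8 members, the 2 genes of each list with the smallest p and any that passed, the 3 replication-dependent histone genes with the most reads, and the 3 genes most like H3f3a, H3f3b and H2afz, with the neuron and interneuron markers and Cldn5 from the marker lists, Gm8203 and the named ends chosen after their values were seen. The 3 named copies of H3f3a are those with the most reads, also chosen after their values were seen. Sequencing instrument per library was not given in the sources used here. Alternatives covered the test, scaling, filter, counted region, block, rounds and neurons.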

Additional observations from a re-analysis of the deposited data

Results flagged for a closer look

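Of 27 sets of 4 to 10 values tested for a sample far from the others, 3 held one. The limit is meant to flag about 1 in 20 sets of normally distributed values. That rate does not hold here, since 4 values with 3 at 0 and 1 above 0 are always flagged. Among the 4 neurons amplified in 3 rounds, the dendrites of neuron 1 had 17.4 CPM of H3f3a, where the other 3 had 0 to 0.817. The soma of neuron 1 had 6.87. This held for 3′UTR reads only: on exons these dendrites had 12 reads of H3f3a, and those of neurons 2, 3 and 4 had 18, 34 and 85, in libraries of differing depth. The dendrites of neuron 4 had 0.774 CPM of H2afx, from 1 read, where the other 3 had 0. In neuron 4 the log2 difference between dendrites and soma (CPM plus 1) was -6.33 for H2afy, from 1 read in dendrites and 1024 in the soma, while the other 3 neurons lay between -0.73 and -0.21.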

How the results depend on the processing

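The count of the 8 genes higher in somas, 1 by edgeR, was 7 with DESeq2 and with spike-in scaling of exon counts in edgeR, 4 with median-of-ratios scaling, and 0 with the median gene near 0, with genes of 1 read in any library, on exon counts, in the 4 neurons of 3 rounds alone and without neurons 12, 15 and 16 (chosen after seeing the data). The count of all genes higher in somas, 621, was 5029 with DESeq2, 1008 with median-of-ratios scaling, 92 with the median gene near 0, 181 with the filter at 10 reads, 143 with genes of 1 read in any library, 257 on exon counts, 6131 with spike-in scaling, 306 in the 12 neurons of 2 rounds, 1 in those of 3 rounds and 59 without neurons 12, 15 and 16. The count higher in dendrites, 90, was 463 with DESeq2, 548 with the median gene near 0, 15 with genes of 1 read in any library, 12 with spike-in scaling, 41 in the neurons of 2 rounds and 3 in those of 3 rounds. The cause of these shifts was not tested.

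Without the replicate block that pairs soma and dendrites of a neuron, 0 of the 8 genes passed, with 77 genes higher in somas and 157 in dendrites, H1f0 had -2.68 (adjusted p = 0.140, edgeR), H2afj turned to 0.16, and the ratio contrasts of H3f3a to H3f3b and of H2afz to H2afv had permutation p of 0.103 and 0.526. Leaving out 1 neuron at a time gave 0 to 2 of the 8 genes, 130 to 990 genes higher in somas (236 without neuron 15, 130 without neuron 16, 990 without neuron 5) and 56 to 120 in dendrites. Genes higher in somas also moved by over 1.5 times without neuron 1 (320), 2 (948), 3 (253), 4 (349), 7 (401), 10 (328), 12 (295) or 13 (244), and genes higher in dendrites without neuron 4 (56), 7 (57) or 10 (57). H3f3b passed without neuron 11 (adjusted p = 0.0449, edgeR).

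H2afz (0.41) and H2afj (0.81) turned positive with the median gene near 0, and H2afj (0.89) in the neurons of 3 rounds. The difference between rounds, with 0 genes called (288 at an unadjusted p under 0.05, edgeR), had 1 on exon counts, and it turned for H3f3a on exons (0.72) and without the block (1.20) and for H2afy without the block (-0.59). The ratio of H3f3a to H3f3b passed on exon counts (1.25) and turned in the neurons of 3 rounds (-0.43). Per spike-in read 8 of the 8 genes passed (75.6% of all genes), 5 without neurons 12, 15 and 16 (51.7%), and 7 without neuron 9 (68.9%), 10 (68.0%), 13 (74.3%) or 15 (68.4%), where H2afj was lost. Thinned to equal totals of 3′UTR reads, 0 genes of the set would be expected in 15 dendrites, against 1. Of 391 values of single genes of the set under alternatives, 349 were labelled the same. For tested values this means the same direction and side of the threshold, and for dendritic read fractions a move of less than 1 SD. Most of these alternatives left out 1 neuron, and most genes of the set had not passed the main compartment test, so the count is no measure of robustness.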
